A study of Musca domestica with 24 samples.

Results

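A single head library from a house fly, Musca domestica, held 258 genes far above their level in every other head. The library is SR replicate 2, and the genes were chosen from the head table by 2 limits. Each had at least 10 RPM in that head, RPM being a gene's reads per 1000000 reads of the library, and over 4 times the RPM of the highest of the other 11 heads, among 16443 genes with an identifier that starts with LOC. These head values chose the genes and are given as a description, with no test. The other 11 heads took part in the choice through the ratio limit, so differences among them are a description as well. The abdomens of the same experiment took no part and were tested.

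Poly(A) RNA was sequenced from the heads and abdomens of single flies of strain IIIM (3-6), in which the male determiner lies on the third chromosome (Muller element A), and each tissue had 4 groups of 3 flies. SR flies and N flies had received double-stranded RNA against Md-tra, and all were phenotypic males. GFP females and GFP males had received double-stranded RNA against GFP, a sequence the fly lacks. By the sample titles SR flies were genotypic males and N flies were genotypic females that developed as males, but the deposited comparisons name SR as the sex-reversed males in their headers, so the 2 groups are called SR and N here. The labels give no age for the flies.

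Md-tra, the transformer gene of this species, codes for a splicing regulator that keeps the female pathway of sex determination running. Without its product an embryo develops as a male, and a male determiner acts by blocking it. A fly head holds brain, eyes, other sense organs, muscle and some fat body, whereas an abdomen holds most of the fat body and gut and all of the gonads and reproductive glands. Genes with testis or accessory gland expression are therefore usually low in a head and high in a male abdomen. The identifiers carry no description in the tables or in the reference gene table, so no role is given for any of the 258 genes. Of these, 214 were matched to RefSeq, of which 205 are protein coding, 5 are long non-coding RNAs, 2 are other RNAs and 2 are pseudogenes.

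The other 11 heads held no set of this size. The same 2 limits applied in turn to each other head gave 1 gene in SR head 1 and 1 in SR head 3, 1 to 12 genes in the N heads, 6 to 15 in the GFP female heads and 0 to 3 in the GFP male heads. In abdomens they gave 4 to 69 genes per library. Depth was 62303540 reads in SR head 2 and 12080603 to 79454339 reads over all heads. Abdomens had 2689265 to 77407229 reads, the 2 shallowest being N replicates 1 and 3. The neuropeptide gene pdf, made in clock neurons of the brain, stood at 56.8 RPM in SR head 2, against 12.3 to 53.3 RPM in the other heads and at most 4.68 RPM in the abdomens. The taste receptor gene Gr2 had 0.674 RPM in SR head 2, against 0.933 to 25.9 RPM in the other heads, and the chemosensory receptor gene IR25a had 2.54 RPM in SR head 2, against 2.39 to 22.1 RPM in the other heads. The cytochrome P450 gene CYP6G4 had 344 RPM in SR head 2, against 424 to 1559 RPM in the other heads. Of 9 cytochrome P450 genes and partners, it was the 1 below every other head by RPM, and 2 were above every other head. These were CYP6A24 (466 RPM, at most 315 RPM in another head) and CYP12A1 (9.33 RPM, at most 5.05 RPM in another head). The large share of reads that the members took lowers the RPM of all other genes in SR head 2. The place of CYP6G4 below every other head therefore depends on the RPM scale. GFP female head 2 also stood apart on some of the members, as described below.

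**Figure D1:**
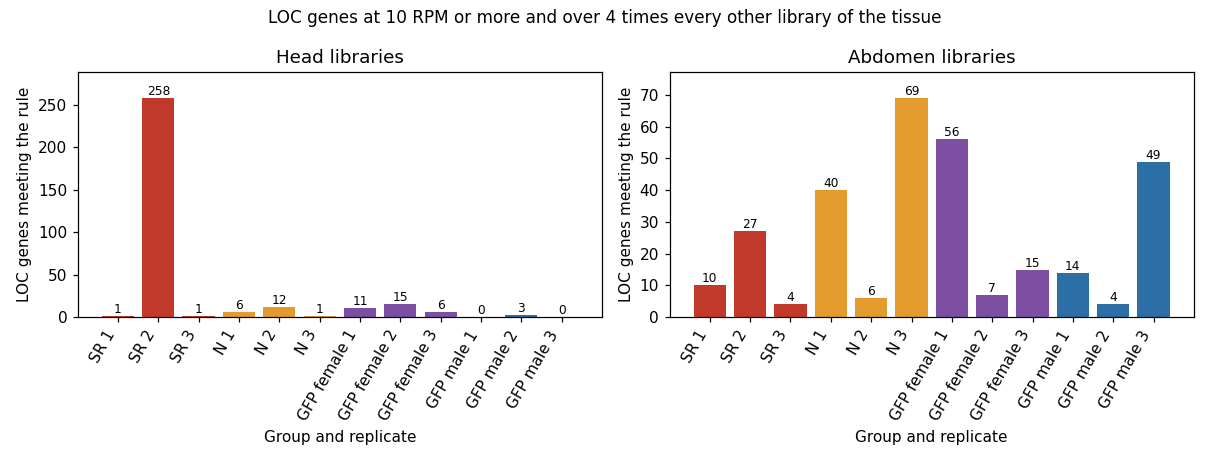
Number of LOC genes at 10 RPM or more and over 4 times every other library of the same tissue, for each head library (left) and abdomen library (right), ordered SR, N, GFP female, GFP male. SR head 2 has 258 such genes and no other head has more than 15.

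The 258 genes together took 192897 RPM in SR head 2, or 19.3% of its reads. GFP female head 2 held 14523 RPM of them, and the other 10 heads held 1474 to 2248 RPM. The median gene had 59.96 RPM in SR head 2 and stood 10.1-fold over its highest other head, with quartiles of 5.67-fold and 41.2-fold. In SR head 2, 110 genes were over 100 RPM and 27 over 1000 RPM. The load was uneven, since the highest gene took 29.4% and the 10 highest took 65.8% of the members' reads.

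**Figure D2:**
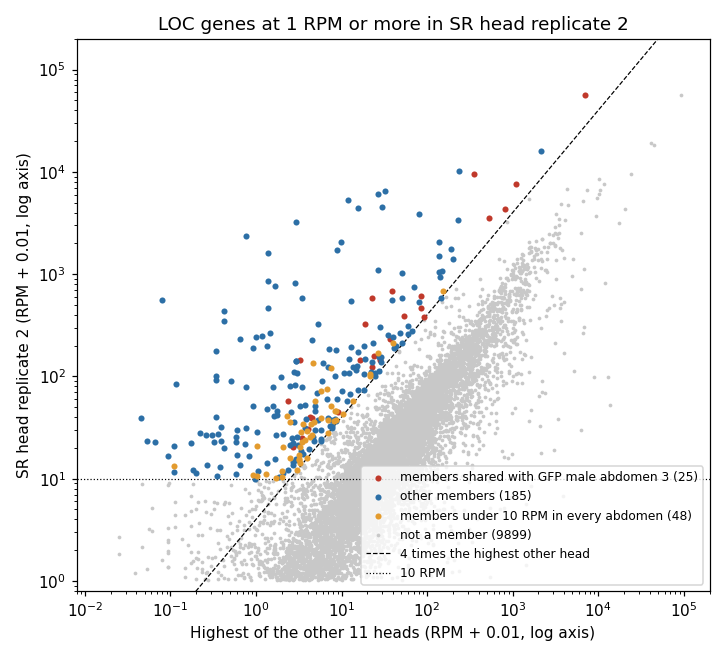
RPM of each LOC gene in SR head 2 (vertical) against the highest of the other 11 heads (horizontal), both as RPM + 0.01 on log axes, for genes at 1 RPM or more in SR head 2. The 258 coloured genes lie above the dashed line of 4 times the highest other head and the dotted line of 10 RPM; LOC101892639 is the topmost at 56733 RPM.

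LOC101892639 had 56733 RPM in SR head 2. The other heads ran from 0 over a median of 0.0637 to 6932 RPM, the last in GFP female head 2. In abdomens it had 4.11, 3.39 and 0.415 RPM in SR flies, 1.49, 2.11 and 671 RPM in N flies, 0.0646, 0.117 and 2.87 RPM in GFP females, and 2.34, 8.13 and 18912 RPM in GFP males. The gene was thus abundant in 1 head of an SR fly, 1 head of a GFP female and 1 abdomen of a GFP male, lower in 1 N abdomen, and near 0 elsewhere. Its element is not given.

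LOC109612647 on element A had 16099 RPM in SR head 2, and the other heads ran from 0.117 over a median of 4.06 to 2133 RPM in GFP female head 2. GFP female head 3 held 289 RPM of it and GFP male heads 1 and 2 held 511 and 260.2 RPM. Abdomens of GFP males held 6203, 1.56 and 2904 RPM, so that males 1 and 3 held it and male 2 held almost none. LOC109614058, without an element, stood at 10269 RPM in SR head 2 and at 0.108 to 235 RPM in the other heads, with a median of 0.549 RPM. Its abdomens held 630.2, 1612 and 28.8 RPM in SR, 61.0, 6958 and 98.3 RPM in N, 0.930, 32.4 and 8.46 RPM in GFP females, and 3636, 1563 and 1001 RPM in GFP males.

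Of the 10 most abundant members, LOC101891419 (element A, 9458 RPM in SR head 2) and LOC101900093 (element E, 7549 RPM) followed the pattern of LOC101892639, with 350.2 and 1085 RPM in GFP female head 2 and 7980 and 2836 RPM in GFP male abdomen 3. The remaining 5 were high in many male abdomens. LOC101888850 had 6481 RPM in SR head 2 and at most 32.0 RPM in another head, and 4138, 7037 and 93.1 RPM in SR abdomens. LOC101889208 had 6136 RPM in SR head 2, at most 26.3 RPM in another head, and 7950, 9367 and 62.0 RPM in SR abdomens. LOC105261620 on element C had 5253 RPM in SR head 2 and at most 11.9 RPM in another head. LOC101888576 on element E and LOC101896409 on element C had 4578 and 4436 RPM in SR head 2, and at most 29.9 and 15.7 RPM in another head.

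The genes with the largest ratio were ones with few or no reads in the other heads. LOC101889570 on element D had 553 RPM in SR head 2 and 2 reads in GFP female head 2, its highest other head, a ratio of 7971 with a 95% exact binomial interval of 2206 to 65821 that covers counting error only. LOC101898651 on element C had 2356 RPM in SR head 2, at most 0.745 RPM in another head and a ratio of 3162. A further pair of element C genes, LOC101899495 (1594.5 RPM, ratio 1148) and LOC101899319 (3218 RPM, ratio 1090.4), lie next to each other in the reference gene table. LOC101899220 and LOC101894373, both on element B, had 433 and 346 RPM and ratios of 1046 and 836. LOC101893367 on element A and LOC101889812 on element E had ratios of 795 and 634. LOC101895564 on element A and LOC101890018 on element B had 38.9 and 23.5 RPM in SR head 2 and 1 read in their highest other head, so that their ratios of 1121 and 548 had intervals of 201 to 44302 and 98.2 to 21662.

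At the level limit, LOC101891326, LOC101892253 and LOC101897478 lay just inside with 10.02, 10.2 and 10.5 RPM in SR head 2, and LOC101888934, LOC101893256 and LOC101888811 just outside with 9.58, 9.57 and 9.41 RPM. At the ratio limit, LOC101901814, LOC101888465 and LOC101898636 lay just inside at 4.01, 4.01 and 4.04 times the highest other head, and LOC101899137, LOC101890798 and LOC101889524 just outside at 3.98, 3.91 and 3.90 times.

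Most members were also found in abdomens, at higher levels in male than in female ones. Their highest abdomen was at or above 10 RPM for 210 of the 258 genes: 104 reached 10 to 100 RPM, 83 reached 100 to 1000 RPM and 23 more than 1000 RPM. The same shares over all LOC genes are not given, so these counts are not read as particular to the members. Summed over the 258 genes, SR abdomens held 34324, 54874 and 3785 RPM, N abdomens 8635, 72906 and 6460 RPM, GFP female abdomens 1860, 1763 and 1583 RPM, and GFP male abdomens 53844, 41801 and 52846 RPM. Every male abdomen was above every GFP female abdomen, and the male abdomens differed among themselves by up to 19.3-fold. Tissues were compared as reads scaled to each library's own total, so an abundant gene in 1 tissue lowers the RPM of all others there. In whole heads and abdomens, more cells of a type and more RNA per cell cannot be told apart.

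**Figure D3:**
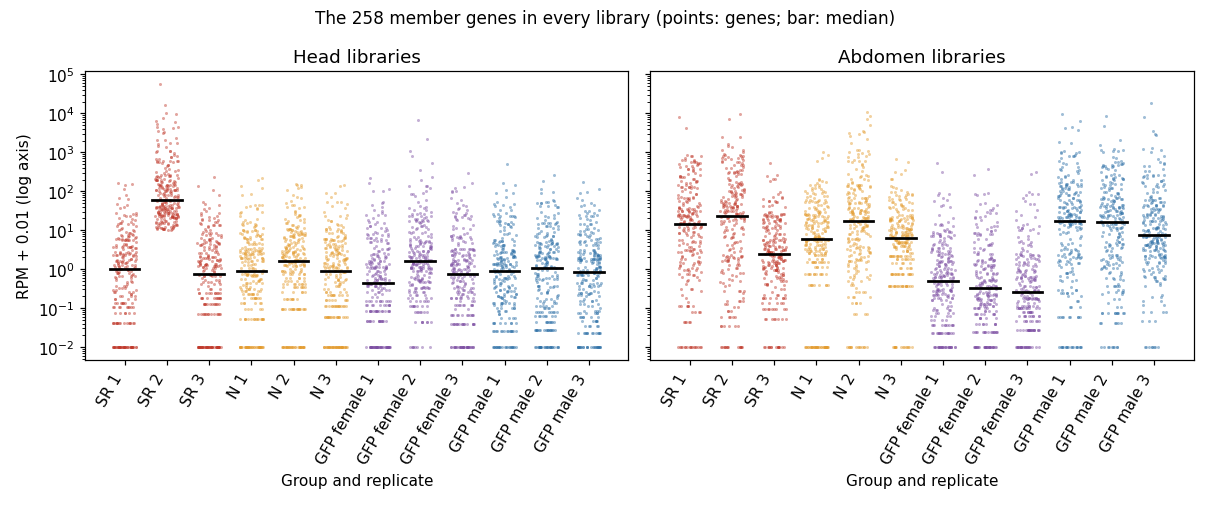
RPM + 0.01 (log axis) of each of the 258 members in the 12 heads (left) and 12 abdomens (right), with 1 point per gene and library and a bar at the median. The median is 59.96 RPM in SR head 2; GFP female abdomens have the lowest medians among the abdomens.

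By their abdomen levels the members fell into 3 sets, drawn after the values had been seen and not tested against each other. The first set holds 25 genes that were over 4 times as high in GFP male abdomen 3 as in any other abdomen. For all 25, GFP female head 2 was the highest of the other heads. Their summed level was 86193 RPM in SR head 2, 10282 RPM in GFP female head 2 and 2.10 to 18.9 RPM in the other 10 heads. In abdomens it was 39131 RPM in GFP male abdomen 3, 913 RPM in N abdomen 3 and 0.614 to 19.5 RPM in the other 10. These genes were therefore at high levels in 3 libraries of different groups and tissues, and 19 of the 25 stayed under 1 RPM in all of the other 10 heads.

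Within the 25 genes the proportions differed between those libraries. SR head 2 held 4.15 to 44.96 times as much as GFP female head 2, with a median of 7.28 times, and 0.0745 to 4.28 times as much as GFP male abdomen 3, with a median of 1.21 times. SR abdomen 2, whose library code has the same number as SR head 2, held 10.9 RPM of the set. The labels say that heads and abdomens came from individual flies and do not say whether these 2 libraries came from 1 fly. Applied to GFP female head 2 with SR head 2 left out, the 2 limits gave 53 genes, of which 25 are members (47.2% of that list and 9.69% of the members) and 17 belong to this set. By element, 6 of the 17 genes of the set with an assignment are on A, 4 on D and 4 on E. Next to each other in the reference lie LOC101892639 and LOC101892817, LOC101899923 and LOC101900093, and LOC109613332 and LOC101891244.

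**Figure D4:**
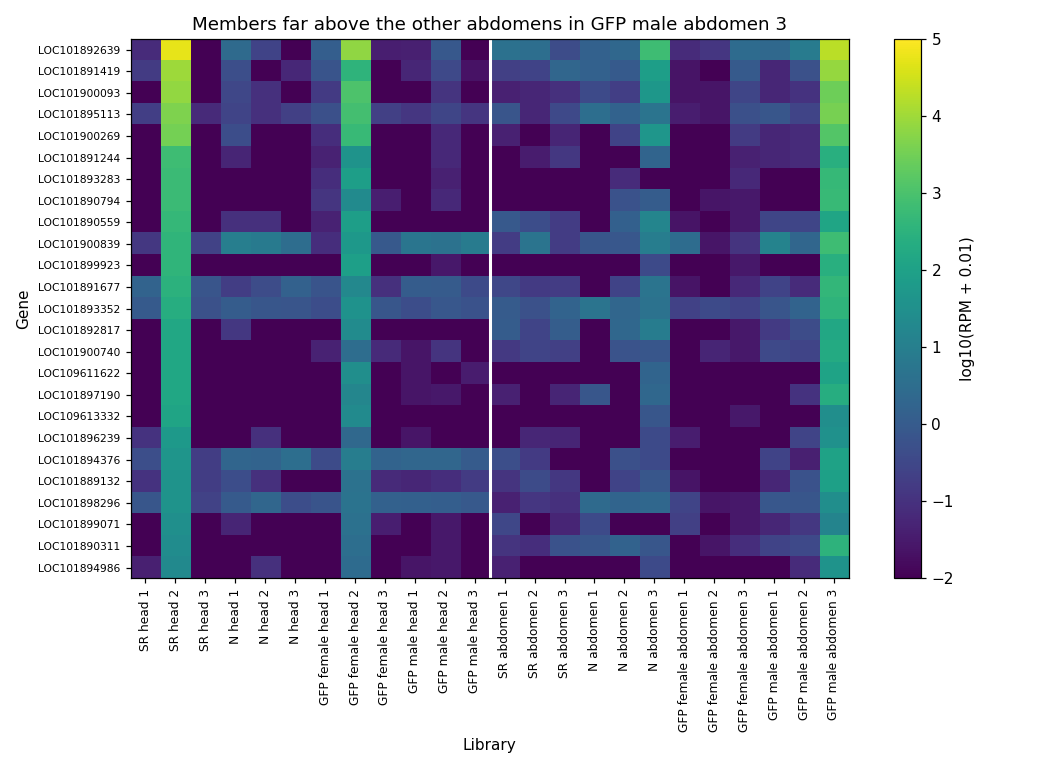
Level, as log10(RPM + 0.01), of the 25 members over 4 times as high in GFP male abdomen 3 as in any other abdomen, with genes in rows and the 24 libraries in columns (heads left of the white line). The columns of SR head 2, GFP female head 2 and GFP male abdomen 3 stand out, and N abdomen 3 is raised for the most abundant genes.

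The second set, 185 genes, reached 10 RPM in at least 1 abdomen without being set apart in GFP male abdomen 3. It summed to 103967 RPM in SR head 2 and to 1246 to 4158 RPM in the other heads. SR abdomens held 34253, 54806 and 3716 RPM, N abdomens 8548, 72832 and 5438 RPM, GFP female abdomens 1814, 1723 and 1534 RPM, and GFP male abdomens 53784, 41736 and 13649 RPM. Flies of 1 group differed widely. Over all 258 members, SR abdomen 3 was the lowest SR abdomen for 168 genes (65.1%, against 28.1% of all genes kept in the abdomen), and SR abdomen 2 the highest for 152 (58.9%, against 35.1%). N abdomen 2 was the highest N abdomen for 150 members (58.1%, against 17.3%), and GFP male abdomen 3 the lowest GFP male abdomen for 151 (58.5%, against 28.5%). The member shares include 25 members that were not kept in the abdomen, so the 2 shares cover unlike sets.

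The third set, 48 genes, stayed under 10 RPM in every abdomen, 11 of them under 1 RPM, and LOC109613747 had no read in any abdomen. Their sum was 38.8 to 108 RPM in the abdomens. In heads it was 2736 RPM in SR head 2, 205 and 209 RPM in SR heads 1 and 3, 219 to 407 RPM in N heads, 80.5 to 106 RPM in GFP female heads and 129 to 221 RPM in GFP male heads. Their highest other head was N head 2 for 23 genes and GFP male head 2 for 13. LOC101895987 on element C was the most abundant, with 687 RPM in SR head 2, 64.7 and 53.6 RPM in SR heads 1 and 3, 118, 155 and 72.0 RPM in N heads, 24.4, 25.6 and 37.0 RPM in GFP female heads, and 23.5, 52.2 and 31.6 RPM in GFP male heads. Its abdomens ran from 0.0960 to 7.98 RPM. LOC101901069 on element E had 210.3 RPM in SR head 2, 14.4 and 18.2 RPM in SR heads 1 and 3, 22.7, 40.3 and 22.7 RPM in N heads, and 2.51 to 5.46 RPM in the 6 GFP heads. Both were named for being the most abundant of their set, after their values were seen.

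By rank across the members, SR head 2 was closest to GFP male abdomen 3, with a Spearman correlation of 0.678 over the 258 genes, and the other abdomens ran from 0.184 in GFP female abdomen 1 to 0.587 in N abdomen 3, with 0.297 in SR abdomen 2. Over the 185 genes of the second set the correlation was 0.717 with GFP male abdomen 3, 0.715 with GFP male abdomen 1, 0.707 with N abdomen 2 and 0.457 with SR abdomen 2. These are correlations across genes, which share libraries and depth and are not replicates. Over the 244 members with a read in SR abdomen 2, the ratio of SR head 2 to that abdomen had a median of 2.94, quartiles of 0.725 and 22.1, and a range from 0.0128 to 157227. For 140 of the 258 genes SR head 2 was above every abdomen, and for 55 of them over 4-fold above. The rule chose genes high in SR head 2, and the shares over all LOC genes are not given, so nothing is read from these counts. A list of 13 genes at 100 RPM or more in all 9 male-phenotype abdomens and over 20 times the other heads, chosen after seeing the data, holds 1 member, LOC101894905, at 143 RPM in SR head 2. The other 12 summed to 2.92 RPM in SR head 2, 1.69 to 65.1 RPM in the other heads and 8043 to 72499 RPM in the male-phenotype abdomens, and 11 of the 12 were under 1 RPM in SR head 2. Of the lists planned at the outset, that of genes over 100 RPM in all abdomens and under 1 RPM in the other heads held 0 genes, and that of male abdomen genes held 1, at 0.0161 RPM in SR head 2 and 0 to 0.828 RPM in the other heads.

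In control flies, most members were lower in female than in male abdomens. Values for this and the later tests are normalized counts on the log2(count + 1) scale, and the test was limma with Benjamini-Hochberg adjustment over all genes kept. Of 233 members kept, 193 were lower and 13 higher in GFP females than in GFP males, and 27 passed no threshold. Over all 12537 genes kept, 44.3% were lower and 33.4% higher in GFP females. The median log2 difference was -6.17 for the members and -0.61 for all genes, and under TMM scaling -5.73 and -0.07, with 184 members lower and 15 higher. The 25 members left out reached 10 normalized counts in fewer than 3 abdomens.

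**Figure D5:**
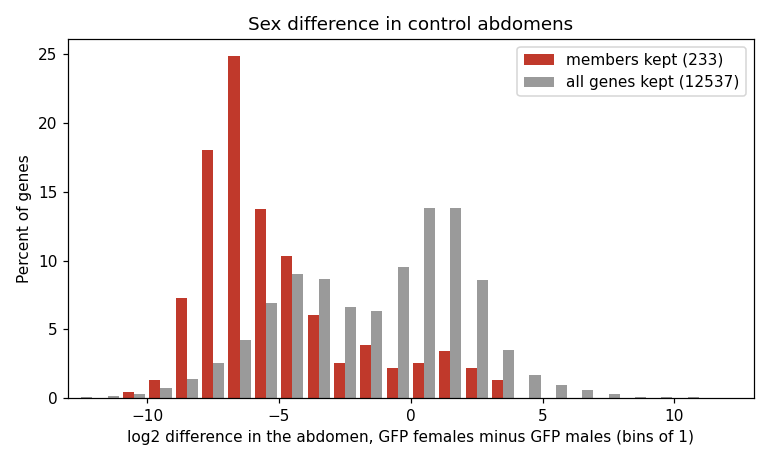
Percent of genes in bins of 1 of the log2 difference between GFP female and GFP male abdomens, for the 233 members kept (left bar of each pair) and all 12537 genes kept (right bar). The members peak between -8 and -5 and the whole table has a second peak above 0; the medians are -6.17 and -0.61.

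LOC101889779 showed the largest drop, with 0.0258, 0.161 and 0 RPM in GFP female abdomens, against 301, 118 and 7.65 RPM in GFP male abdomens. Its log2 difference was -10.02 ± 1.96 (SE; n = 3 per group; limma, adjusted p = 0.0008007). LOC109613281 on element A had 0.0129, 0.570 and 0.2997 RPM in GFP females, against 424, 95.1 and 22.4 RPM in GFP males, a log2 difference of -9.32 ± 2.02 (limma, adjusted p = 0.001549). LOC101890884 on element C had 10.7, 3.44 and 1.29 RPM in GFP females, against 1029, 1174 and 1146 RPM in GFP males. Its males lay close together and its log2 difference was -9.00 ± 1.08 (limma, adjusted p = 2.899e-05). A pair of the most abundant members in SR head 2 were also among the 5 largest drops, LOC101889208 at -9.02 ± 1.91 and LOC109614058 at -8.87 ± 2.03 (limma, adjusted p = 0.001362 and 0.002179). In none of these 5 genes did the groups overlap.

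The 13 members higher in female abdomens were led by 5 genes. LOC101898556 on element D had 80.9, 89.4 and 87.0 RPM in GFP females, against 1.96, 5.42 and 6.69 RPM in GFP males, and 25.4 RPM in SR head 2. LOC109614529 had 24.5, 23.7 and 32.2 RPM in GFP females, against 1.34, 1.95 and 0.991 RPM in GFP males. LOC101888465 on element A reached 516, 369 and 280 RPM in GFP females, against 16.2, 24.2 and 25.8 RPM in GFP males. The groups did not overlap in any of the 3, and the log2 differences were 3.59 ± 0.52, 3.47 ± 0.35 and 3.35 ± 1.14 (limma, adjusted p = 9.819e-05, 9.052e-06 and 0.01995). LOC101888465 lost its call without GFP female replicate 1 or GFP male replicate 1, at adjusted p = 0.0538 and 0.0525 (7.43e-05 to 0.0538 over 13 alternatives). LOC101894251 on element E and LOC109612301 followed at 2.77 ± 0.31 and 2.41 ± 0.46 (limma, adjusted p = 1.812e-05 and 0.0006706).

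The 3 sets were drawn from the abdomen levels themselves, which in the set shared with GFP male abdomen 3 fixed the direction, so no counts are given by set. By element, called members lower and higher in females were 18 and 2 of 24 kept on A, and 19 and 1 of 25 on B. They were 41 and 1 of 45 on C, 24 and 3 of 32 on D, and 42 and 1 of 47 on E. Without an element they were 48 and 5 of 59. Over all genes kept, 44.3% were lower and 33.4% higher. The shares of all genes by element are not given, so the elements are not compared.

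No member was called between SR and GFP male abdomens. Among all genes kept, 0.0638% were higher and 0.0957% lower in SR (limma, Benjamini-Hochberg adjustment), and none of these 20 genes is a member. Unadjusted, 13 of the 233 members kept had p under 0.05, against 815 of all 12537 genes kept. By edgeR 0 members were called, against 2 of all genes. By DESeq2 3 members were higher and 1 lower, against 137 and 131 of all genes. Without SR replicate 3, the SR abdomen lowest in 168 members, 1 member was called, among 21 of all genes. It was LOC105262036, with 30.2, 30.3 and 7.30 RPM in SR abdomens, against 4.78, 6.73 and 3.93 RPM in GFP male abdomens. The sex, SR and N comparisons in the abdomen share the GFP male libraries.

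N abdomens differed from GFP male abdomens in 9 members, 7 higher and 2 lower, or 3.00% and 0.858% of those kept, against 5.11% and 3.76% of all genes (limma, Benjamini-Hochberg adjustment). LOC101888663 had 44.2, 18.7 and 23.9 RPM in N, against 3.06, 2.23 and 4.43 RPM in GFP males, and LOC101887274 on element A had 36.8, 20.8 and 53.7 RPM in N, against 6.21, 6.92 and 7.93 RPM in GFP males. All N values of both genes lay above all GFP male values, with log2 differences of 2.85 ± 0.48 and 2.04 ± 0.30 (limma, adjusted p = 0.01698 and 0.01634). Without GFP male replicate 1 their adjusted p was 0.0557 and 0.0542, and over 13 alternatives each it reached at most 0.0557 and 0.0555. LOC101891146 on element E stood at 8.92, 3.23 and 10.2 RPM in N, against 0.191, 0.574 and 0.956 RPM in GFP males (log2 3.44 ± 0.74, limma, adjusted p = 0.02654). LOC101889597 and LOC101889840, at 2.22 ± 0.51 and 1.93 ± 0.47, were the other named rises (limma, adjusted p = 0.0314 and 0.03622). These last 3 genes lost their call without any 1 of N replicates 1 and 3 and GFP male replicates 1 and 2, LOC101889840 also without GFP male replicate 3, and their adjusted p reached at most 0.0973, 0.103 and 0.119 over the alternatives.

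The 2 lower members were on element C. LOC101890884 had 23.8, 427 and 32.7 RPM in N, against 1029, 1174 and 1146 RPM in GFP males, and LOC101895141 had 13.4, 32.3 and 13.4 RPM in N, against 152, 109 and 450 RPM in GFP males. The groups did not overlap in either gene. Log2 differences were -4.26 ± 1.08 and -3.69 ± 0.72 (limma, adjusted p = 0.04092 and 0.02148). LOC101890884 kept its call only without N replicate 2 among the 6 libraries left out in turn, and LOC101895141 only without N replicate 2 or GFP male replicate 2, with adjusted p of at most 0.159 and 0.0675 over the alternatives. N replicates 1 and 3 are the shallowest abdomens, and these calls depended on single libraries. Without N replicate 1, 2 or 3 the members called were 3, 9 and 2 higher and 0, 7 and 0 lower, and without GFP male replicate 1, 2 or 3 they were 0, 3 and 4 higher and 0, 1 and 0 lower. Over all 12537 genes kept, 443, 1366 and 155 were called without N replicate 1, 2 or 3. Without GFP male replicate 1, 2 or 3 they were 14, 209 and 321. Fitted without the other 2 groups, no member was called, against 38 of all genes. Unadjusted, 30 of the 233 members kept had p under 0.05 in that fit, against 3177 of all genes. In edgeR 4 members were higher and 1 lower, against 224 and 208 of all genes.

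In the heads of control flies the rule held every GFP library under SR head 2 by its ratio limit, so these values took part in the choice of the genes and the sex difference there is given as a description. Fitted on the 11 heads without SR replicate 2, 184 members were kept, of which 7 (3.80%) were past the threshold and higher in GFP females and 24 (13.04%) past it and lower (limma, Benjamini-Hochberg adjustment), against 14.2% and 18.2% of all 12145 genes kept. With edgeR the split was 17 and 17. Nothing is read from these counts. LOC101889835 had 0.144, 0.0347 and 0.0563 RPM in GFP female heads, against 1.33, 3.69 and 2.20 RPM in GFP male heads, and LOC101901814 had 0.251, 0.243 and 0.254 RPM in GFP female heads, against 2.94, 2.66 and 2.16 RPM in GFP male heads. LOC109612953 had 0.287, 0.174 and 0.310 RPM in GFP female heads, against 0.839, 3.21 and 1.77 RPM in GFP male heads. In none of the 3 did the groups overlap, and their log2 differences were -4.25 ± 0.57, -2.94 ± 0.43 and -2.34 ± 0.50 (SE). LOC101892926 and LOC101893286 followed at -2.73 ± 0.87 and -2.56 ± 0.70.

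On the other side, LOC101897437 had 16.4, 33.7 and 41.6 RPM in GFP female heads, against 7.59, 10.6 and 8.28 RPM in GFP male heads, a log2 difference of 1.99 ± 0.31 (SE). LOC101900177 on element A had 0.538, 5.83 and 2.34 RPM in GFP female heads, against 0.168, 0.140 and 0.516 RPM in GFP male heads, at 3.19 ± 0.84. LOC101895135, LOC109612329 and LOC101890278 stood at 2.41 ± 0.64, 2.32 ± 0.67 and 1.71 ± 0.48. The counts past the threshold moved with single libraries, with 11, 3 and 8 higher and 23, 12 and 19 lower without GFP female replicate 1, 2 or 3, and 6, 3 and 5 higher and 17, 8 and 10 lower without GFP male replicate 1, 2 or 3. With SR head 2 in the fit, 0 were higher and 2 lower (LOC101889835 and LOC101901814).

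The members lay on all Muller elements, the chromosome arms conserved among flies. Of 190 members with an element, 15.8% were on A, 14.7% on B, 24.7% on C, 17.9% on D, 26.3% on E and 0.526% on F, against 17.9%, 16.8%, 21%, 18.9%, 25% and 0.371% of all genes with one. The 1 member on element F, the ancestral X of flies, was LOC101890498, with 1399 RPM in SR head 2, 117 and 133 RPM in SR heads 1 and 3, 136, 126 and 92.5 RPM in N heads, 166, 199 and 164 RPM in GFP female heads, and 92.7, 95.01 and 88.7 RPM in GFP male heads. It was thus at 88.7 RPM or more in every head. No element is given for 68 members (26.4%, against 23.3% of all genes and 10.5% of the 6516 LOC genes at 10 RPM or more in SR head 2). In the reference gene table, 41 of the 214 matched members (19.2%) formed 20 runs of neighbouring members, the longest being LOC109612937, LOC105261430 and LOC101888600. Of the 6167 matched LOC genes at 10 RPM or more in SR head 2, 62.6% lay in such runs, in a larger set where neighbours are met more often.

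Genes with a symbol are outside the rule, and 2 of 53 met its limits. Lysozyme, which digests bacterial walls and serves digestion in fly guts, had 126 RPM in SR head 2, against at most 0.662 RPM in the other heads. Its abdomens held 145, 151 and 5.73 RPM in SR, 45.4, 499 and 16.7 RPM in N, 1.20, 1.78 and 1.29 RPM in GFP females, and 81.8, 130 and 20.5 RPM in GFP males. Replicate 3 was the lowest of each male group. MdRdl, a GABA-gated chloride channel of neurons, had 42.7 RPM in SR head 2, 3.79 and 3.21 RPM in SR heads 1 and 3, 4.41, 8.53 and 4.04 RPM in N heads, 0.431, 0.243 and 0.789 RPM in GFP female heads, and 0.534, 0.876 and 0.818 RPM in GFP male heads. It was at most 1.09 RPM in abdomens, as in the third set. Of the symbol lists, 1 of 4 immune effectors, 0 of 9 cytochrome P450 genes and partners, 0 of 4 serpins, 0 of 2 heat shock genes, 0 of 2 sensory receptors and 0 of 1 yolk protein genes met the limits.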

How the data were processed

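For each tissue the authors deposited a table of 16540 genes. The authors normalized its signal, named normalized counts in the file headers, by dividing each read count by 1 size factor per library, as the values show. Columns of log2 fold changes and of adjusted p-values from the authors' own comparisons, per the file headers, were left aside. The submitters' processing notes name CASAVA 1.8, HISAT2 0.12.2, HTSeq 0.9.1 and DESeq2 1.16.1 without their roles. Build and annotation: not given in the sources used here. Libraries were made from poly(A) RNA with a stranded kit, per the labels' protocols. Reads shared by paralogs or overlapping genes may have been counted in ways these tables do not show.

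Dividing by each column's smallest value above 0 gave whole reads for 100% of values (tolerance 0.001), and these were scaled to RPM. A 95% exact binomial (Clopper-Pearson) interval is given for ratios that rest on 1 to 3 reads; it covers counting error only, and PCR reads are not independent molecules. Tests used limma 3.58.1 (R 4.3.3) on log2(normalized count + 1) with a trended prior, over genes with at least 3 libraries at 10, and Benjamini-Hochberg adjustment at 0.05 over all genes kept. The choice between edgeR and limma was left to the unit found, and normalized counts called for limma. Such fold changes understate the change of low genes. All 12 abdomens shared 1 fit, and the head fit used the 11 heads without SR replicate 2. On recovered reads, edgeR 4.0.16 called 10322 genes for the abdominal sex difference, 2 for SR, 432 for N and 3966 for the head; DESeq2 1.42.0 was another alternative. The fits were tested on simulated data.

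The members and lists were chosen with earlier results of these data known. Genes were named by a rule: the 10 highest in SR head 2 by RPM and by ratio, 3 on each side of each limit, and up to 5 per direction of each test. SR and GFP male abdomens with the same number had correlations of 0.179, 0.321 and 0.465 around their group means. Those with different numbers ran from -0.453 to 0.178, the highest being SR 2 with GFP male 1. This likeness is seen in the data, and no pairing is stated by the labels. A replicate block called no member there either. Flies are biological replicates per the labels, and 1 GFP female head (replicate 1) had 1.2 µg of RNA in place of 1.5 µg. Md-tra, protein families and sequences were not analysed here.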

Additional observations from a re-analysis of the deposited data

Results flagged for a closer look

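A group of 8 members differed between GFP females and GFP males in opposite directions in head and abdomen, with no overlap between the groups in either tissue. The difference between the tissues itself was not tested, and the head values were capped by the rule that chose the genes. Of these, 5 were higher in female heads and lower in female abdomens. LOC101900177 had a log2 difference of 3.19 in the head and -6.56 in the abdomen. LOC101895135 stood at 2.41 and -6.74, LOC109612329 at 2.32 and -6.78, and LOC101890278 at 1.71 and -5.44. LOC101890498, the element F member, had 1.23 in the head and -5.81 in the abdomen. The other 3 were lower in female heads and higher in female abdomens: LOC101899924 at -1.80 and 1.70, LOC109614529 at -1.54 and 3.47, and LOC105261842 at -0.91 and 1.54. In all, 18 of the 169 members kept in both tissues were past the threshold in both, 8 of them (44.4%) in opposite directions. Over all 11116 genes kept in both tissues, 2698 were past it in both and 1455 of those (53.9%) in opposite directions. Overlap between the groups is not given for all genes. The share in opposite directions was lower among the members than among all genes, so nothing is read from these counts. With SR head 2 in the fit, none of the 8 was past the threshold in the head. LOC101900177, LOC101895135, LOC109612329 and LOC101890278 also fell short there without GFP female replicate 2, or without GFP male replicate 2. LOC101900177 did so too without GFP female replicate 3 or GFP male replicate 1. For LOC101890278 this held without GFP female replicate 3 or GFP male replicate 3, and for LOC109612329 without GFP female replicate 1 or GFP male replicate 1 or 3. The head side is a description, since the rule used these values.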

How the results depend on the processing

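The abdominal sex counts (13 members higher, 193 lower) stayed at 13 to 15 and 179 to 196 under other settings, and at 11 to 14 and 176 to 184 with 1 library left out. For SR against GFP males (0 and 0), DESeq2 gave 3 higher and 1 lower, and leaving out 1 library gave 0 to 1 higher and 0 lower. For N against GFP males (7 and 2), edgeR gave 4 and 1, DESeq2 14 and 5, the compared libraries alone 0 and 0, a pseudocount of 10 gave 4 lower, and leaving out 1 library 0 to 9 and 0 to 7. For the head (7 and 24), edgeR gave 17 higher, DESeq2 20 higher, the compared libraries alone 12 lower, all 12 heads 0 and 2, and leaving out 1 library 3 to 11 and 8 to 23. The rule gave 389 genes at a ratio limit of 2 and 151 at 8. Of 359 alternative values for the 27 named tests, 75 fell short of the threshold and none changed sign; the cause was not tested.

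With the replicate number as a block, 13 and 193 members were called for the abdominal sex difference, and 0 and 0 for SR. The block gave 7 and 3 for N, and 8 and 18 for the head. Outside SR, libraries with the same replicate number had correlations from -0.094 to 0.163. Their library codes differ, being 2, 3 and 4 in GFP females and N, and 1, 2 and 3 in GFP males. Libraries that share a code had correlations from -0.209 to 0.114, and a block by library code was not run. Depth limits the N abdomens most, where 3 reads are 1.116 and 1.09 RPM in replicates 1 and 3.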

Other observations

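SR head 2 also had genes below the other heads. Among LOC genes at 10 RPM or more in every other head, 18 were over 4 times lower in SR head 2 than in the lowest other head. The same limits applied to each other head in turn gave 52 in SR head 1, 33 in GFP female head 2 and 0 to 4 in the rest. Among genes with a symbol, 13 of 53 were below every other head in SR head 2 by RPM, and 7 of 53 were above every other head. The members held 19.3% of the reads of SR head 2, which lowers the RPM of all other genes there. AQP, named for aquaporin water channels, had 8.11 RPM in SR head 2, against 23.5 to 61.4 RPM in the other heads. The antimicrobial peptide gene defensin-1 had 94.0 RPM in SR head 2, against 182 to 1727 RPM in the other heads, and 3 of 4 serpins lay below every other head. Sxl, the Sex-lethal homolog, had 43.3 RPM in SR head 2, and MdaE7, a carboxylesterase, had 56.1 RPM. The yolk protein gene yp3 had 1128 RPM in SR head 2, against 56.1 and 112 RPM in SR heads 1 and 3. It had 5126, 55.7 and 867 RPM in GFP female heads, and 5.21 to 40.0 RPM in N and GFP male heads.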
